A study of Rattus norvegicus with 6 samples.

Results

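Synovial fibroblast-like cells attach and grow when joint lining is put in culture, and they make the matrix and the enzymes that remodel an inflamed joint. The comparison described here set cells fed serum from rats stimulated with needles (MS+, for mechanical stimulation) against cells grown in fetal bovine serum (FBS), with the labels' APP and FBS libraries as its members. It used 4 of the 6 libraries of the series as its members, and 9820 of the 17221 transcript features of the deposited table had 1 CPM (reads scaled to the size of the library) or more in both libraries of at least 1 group. All 6 libraries came from cells of female Wistar rats with collagen-induced arthritis. The cells of 2 rats were each divided over 3 media, so that each group holds 1 library per rat. MS+ serum was drawn after 18 days of stimulation, which the labels call acupuncture. The other rat serum (MS−) came from animals without stimulation, described as healthy in one label field and as arthritic in others. FBS is the usual culture supplement, and it differs from both rat sera in species and in the age of the donors as well. How many animals gave each serum was not stated. With the rat as a block, p-values measure how far the serum effects differed between cells of 2 rats. They do not measure the spread between serum donors. The purpose of the comparison was to ask what the serum of stimulated animals does to the cells, and MS− was used here to find which of those changes the serum of untreated animals did not share.

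Serum carries growth factors, hormones, lipids and proteases, and cultured fibroblasts adjust to all of these. Growth factors drive quiescent fibroblasts into the cell cycle through immediate early genes such as Fos and Egr1. Glucocorticoids act through a nuclear receptor that switches on genes such as Per1, Fkbp5 and Tsc22d3, and fatty acids act through the PPAR receptors on genes of fatty acid burning such as Cpt1a, Pdk4 and Angptl4. Fetal and adult serum are known to differ in these constituents.

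The libraries held 5463316 to 5991889 reads, and 3 reads in a library corresponded to 0.491 to 0.551 CPM, counting error only. Fibroblast markers were abundant as a sum, at 72084 to 74704 CPM in MS+ and 82106 to 89009 CPM in FBS. Most of that sum was Col1a1, Col1a2, Vim and Col3a1. Dcn and Lum, also on that list, held 7 and 17 reads over all 6 libraries. Markers of synovial lining cells summed to 109.7 to 109.8 CPM in MS+ and 75.3 to 80.7 CPM in FBS, and Cd55 alone made the MS+ sum the higher one, since of 5 tested it rose while Pdpn (-1.21) and Has2 (-0.59) fell. Prg4, another lining marker, measured 1.27 to 3.32 CPM over all libraries, and Vcam1 at most 0.542 CPM. Macrophage markers summed to 16.3 to 18.9 CPM in MS+ and 13.8 to 15.7 CPM in FBS, almost all of it Cd14, and 5 of these 10 markers had 0 reads in every library. Marker genes of smooth muscle and pericytes summed to 3229 to 4169 CPM over all libraries and those of chondrocytes to 1453 to 3014 CPM, lowest in MS−. Skeletal muscle markers summed to 777 to 1209.5 CPM, almost all of it Acta1, with no other member above 7.87 CPM. The chondrocyte sum was almost all Acan, with no other member above 1.84 CPM. The part of such cells in the results was not tested. Lymphocyte, endothelial, epithelial and adipocyte markers summed to at most 3.49 CPM in any library, and the 3 red cell markers were at 0 reads throughout.

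Between MS+ and FBS, 2773 features (28.2% of those tested) were called at an adjusted p under 0.05 (limma, with the rat of origin as a block), 1410 of them higher in MS+ (14.4%) and 1363 lower (13.9%). With library totals in place of TMM scaling, 1172 were higher and 1614 lower. Of these, 558 (5.68% of those tested) moved by 2-fold or more on the log2(CPM + 1) scale, 250 of them up (2.55%) and 308 down (3.14%), and 41 rose and 10 fell by 4-fold or more. The cells of both rats moved in the same direction for 2764 of the 2773 features. The fit with the rat as a block favours such features, so this count is no separate support. The MS+ and FBS libraries did not overlap for 2610 of the called features, against 56.7% of all features tested. Of the called features, 2099 were not called between MS+ and MS−. For 578 features (5.89% of those tested), MS+ differed from FBS and from MS− in the same direction, 281 higher (2.86%) and 297 lower (3.02%). For another 96 (0.978%), MS+ lay between the other groups, 81 of them below FBS and above MS− (0.825%) and 15 above FBS and below MS− (0.153%). MS+ takes part in both of these comparisons, so their results are not independent of each other. Without the rat as a block, 944 features were called between MS+ and FBS, and only Procr and Txnip differed from both other groups in the same direction. With the block, that second count was 66 without MS− replicate 1 and 98 without MS− replicate 2, 122 without the filter on low values and 149 with DESeq2.

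**Figure D1:**
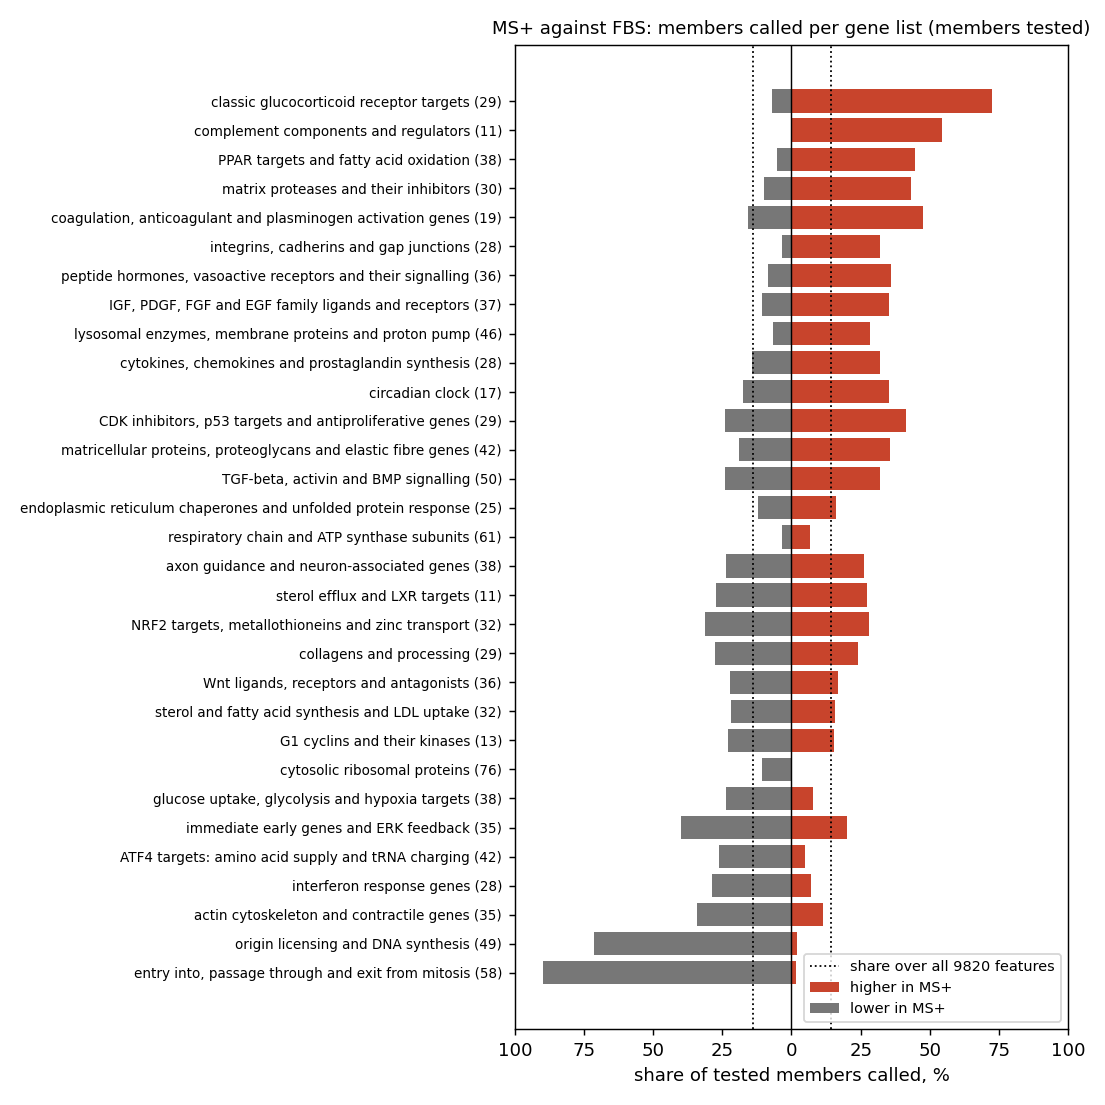
Share of the tested members of 31 gene lists that were called higher (right) or lower (left) in MS+ than in FBS, in percent, with the number tested in parentheses. Dotted lines mark the shares over all 9820 features, 14.4% higher and 13.9% lower. Mitosis and DNA synthesis genes lie at the low end, with 89.7% and 71.4% of members lower, and glucocorticoid receptor targets at the high end, with 72.4% higher.

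Genes of cell division were the group with the largest share of members that fell. Of 58 tested genes of mitosis, 52 fell in MS+ and 1 rose, with a median log2 fold change of -1.24, against 13.9% of all features lower and a median of 0.00 over all features. Of 49 tested genes of origin licensing and DNA synthesis, 35 fell and 1 rose, with a median of -0.94. The medians in the cells of the individual rats were -1.37 and -1.09 for mitosis and -0.96 and -0.94 for DNA synthesis. Without the block, 47 mitosis and 25 DNA synthesis genes were lower. In bulk RNA, fewer dividing cells and less of these transcripts per cell cannot be told apart.

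The promoters of these genes are shown because the members moved together. RefSeq promoters of assembly GRCr8 were matched to 44 of the 52 mitosis genes that fell and to 30 of the 35 DNA synthesis genes. Over the 250 bases before the annotated start, on both strands, they were searched for 3 elements. A CHR element was any run of the letters TTTGAA, and the variant TTCGAA counted as well. A CCAAT box was any run of just those letters, and an E2F site was any of 4 runs (TTTCCCGC, TTTGGCGC, TTTCGCGC or TTTGCCGC). The CHR element is known from genes expressed late in the cell cycle, and the E2F site from genes of the G1 to S transition. A CHR match and a CCAAT match stood together in 21 of the 44 mitosis promoters (47.7%), against 6.13% of 18999 protein-coding promoters and 4.60% of 7873 promoters of tested genes. An E2F match stood in 6 of the 30 DNA synthesis promoters (20.0%), against 2.28% of protein-coding promoters and 3.45% of those of tested genes. CCAAT alone was found in 70.5% of the mitosis promoters and 63.3% of the DNA synthesis promoters, against 35.5% of protein-coding promoters. These are matches of letters and not binding sites. Both lists were written from known roles, and members that did not fall were not compared. Whether the shares relate to the falls was therefore not tested. The stretches below are from the 4 mitosis genes with the largest falls among those with CHR and CCAAT, and the 2 DNA synthesis genes with the largest falls among those with E2F. Capitals mark the matches to CHR and CCAAT in the first 4 and to E2F in the last 2, each read 5′ to 3′ on the strand of the gene.
Cenpa (chr6:31431653-31431802, minus strand): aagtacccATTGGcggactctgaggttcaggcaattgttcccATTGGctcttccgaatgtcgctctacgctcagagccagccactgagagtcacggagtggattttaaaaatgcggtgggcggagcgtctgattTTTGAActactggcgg
Kifc1 (chr20:5000820-5000922, plus strand): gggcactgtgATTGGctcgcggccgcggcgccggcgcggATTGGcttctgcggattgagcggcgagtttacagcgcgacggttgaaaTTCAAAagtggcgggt
Kif22 (chr1:191080879-191081119, minus strand): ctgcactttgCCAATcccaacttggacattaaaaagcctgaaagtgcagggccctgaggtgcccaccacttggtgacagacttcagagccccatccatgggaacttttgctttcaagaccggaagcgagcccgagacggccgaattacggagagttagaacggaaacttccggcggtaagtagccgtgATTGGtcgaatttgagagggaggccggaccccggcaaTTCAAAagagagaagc
Espl1 (chr7:135302606-135302648, plus strand): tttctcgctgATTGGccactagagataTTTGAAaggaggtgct
Mcm5 (chr19:13488590-13488812, plus strand): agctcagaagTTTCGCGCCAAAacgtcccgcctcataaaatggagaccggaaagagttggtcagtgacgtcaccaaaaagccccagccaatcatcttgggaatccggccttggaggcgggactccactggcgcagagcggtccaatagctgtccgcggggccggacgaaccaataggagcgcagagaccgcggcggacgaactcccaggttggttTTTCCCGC
Mcm6 (chr13:42404470-42404501, minus strand): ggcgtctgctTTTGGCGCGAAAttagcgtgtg

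Cenpa, the histone of centromeres, measured 3.06 and 2.39 CPM in the MS+ libraries of rats 1 and 2, and 12.3 and 10.8 CPM in FBS. Kifc1, a mitotic kinesin, measured 5.41 and 6.42 CPM in MS+ and 21.0 and 21.2 CPM in FBS. Espl1, the protease that releases sister chromatids, measured 4.14 and 8.44 CPM in MS+ and 18.7 and 22.7 CPM in FBS. In each of these the MS+ libraries lay well below the FBS libraries, at log2 fold changes of -1.75 (Cenpa), -1.68 (Kifc1) and -1.63 (Espl1). Among replication genes, the helicase subunit Mcm5 measured 3.78 and 4.04 CPM in MS+ and 23.2 and 18.4 CPM in FBS, and Mcm6 measured 8.65 and 9.36 CPM against 32.2 and 34.0 CPM. Chaf1b, a subunit of the complex that loads histones on new DNA, fell by 2.14 on the log2 scale (SE 0.31, adjusted p 8.68e-05). Pcna, the sliding clamp and the most abundant member tested, measured 34.2 and 31.6 CPM in MS+ and 43.4 and 49.6 CPM in FBS, a fall of 0.48 whose call was lost without the FBS library of rat 2, with DESeq2 and without the block.

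Mitosis genes were not lowest in MS+. The scaffold Iqgap3 (NM_001191709, rn4 chromosome 2, 180155679 to 180198814, plus strand) measured 13.5 and 17.1 CPM in MS+, 6.59 and 9.04 CPM in MS− and 61.7 CPM in both FBS libraries. Its log2 fold change was -1.95 (SE 0.16, adjusted p 2.84e-07) against FBS and 0.89 (adjusted p 0.0022) against MS−. Plk1, the kinase that drives entry into mitosis, measured 9.01 and 10.3 CPM in MS+, 3.66 and 7.23 CPM in MS− and 40.4 and 37.1 CPM in FBS. In both genes the MS+ libraries lay above the MS− libraries and far below the FBS ones. Over the list, 36 of 58 genes were higher in MS+ than in MS−, against 5.27% of all features, with a median of 0.82. None was lower, with a count of 0 by limma (also 0 at an unadjusted p under 0.05), edgeR, limma-voom and DESeq2. For 34 of the 58, MS+ was called below FBS and above MS−, which leaves 24 that missed one of these calls or both. The comparison of MS− with FBS, which shares the FBS libraries, had 55 of 58 members lower (9.63% of all features) and a median of -2.08. When the MS− library of rat 1 was left out the 36 became 12, and 20 when that of rat 2 was left out. They became 15 without the filter on low values, 19 with DESeq2 and 0 without the block. For DNA synthesis, 6 genes were higher in MS+ than in MS−, with a median of 0.21, and this count was 0 without the block and 1 or 2 when the MS− library of rat 1 or of rat 2 was left out. By limma 0 were lower (4 at an unadjusted p under 0.05), as by edgeR, limma-voom and DESeq2. Mcm5 was among these 6, at 0.915 and 1.45 CPM in MS−.

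**Figure D2:**
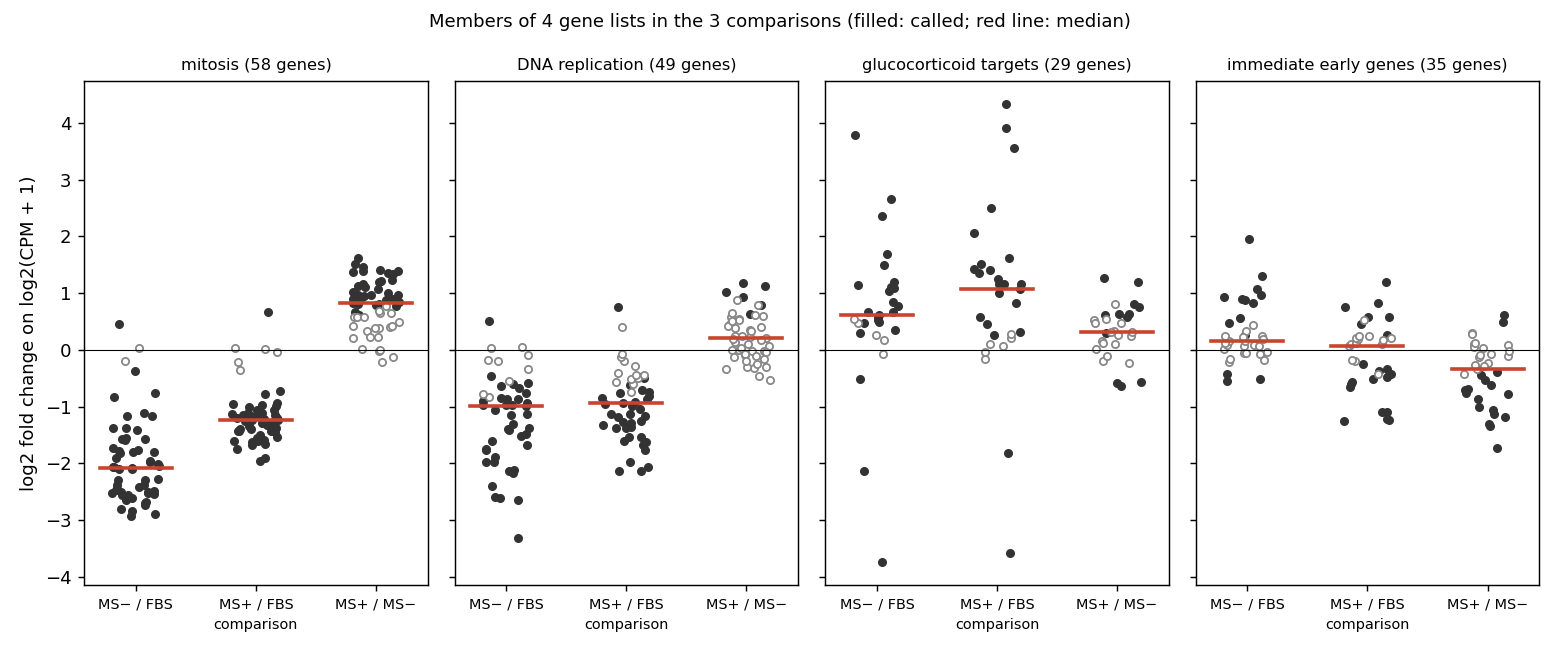
Log2 fold changes on log2(CPM + 1) of the members of 4 gene lists in the comparisons of MS− with FBS, MS+ with FBS and MS+ with MS−, where filled points are called and red lines are medians. The mitosis medians are -2.08, -1.24 and 0.82, and the glucocorticoid target medians are 0.61, 1.07 and 0.32. The 3 comparisons share libraries.

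Inhibitors of the cell cycle moved in both directions. Cdkn1a, an inhibitor of cyclin-dependent kinases (NM_080782, rn4 chromosome 20, 7376325 to 7386778, plus strand), measured 786 CPM in both MS+ libraries and 239 and 247 CPM in FBS, a rise of 1.69 (SE 0.08, adjusted p 5.8e-10). Ccng1, a p53 target, rose from 430 and 473 CPM in FBS to 1017 and 1083 CPM in MS+. MS− held 657 and 718 CPM of Cdkn1a and 1034 and 1035 CPM of Ccng1, and neither gene was called between MS+ and MS− (adjusted p 0.14 and 0.911). Other inhibitors were lower. Cdkn2b, an inhibitor of the G1 kinases, measured 27.0 and 25.9 CPM in MS+, 47.4 and 34.0 CPM in MS− and 70.7 and 70.3 CPM in FBS, and it was called against both. Cdkn2c, of the same family, fell from 24.9 and 20.6 CPM in FBS to 5.95 and 11.4 CPM. Cyclin D1 (Ccnd1), which couples growth signals to the cycle, fell by 0.75 against FBS and by 0.31 against MS−. Of 13 tested G1 cyclins and kinases, 2 rose (15.4%) and 3 fell (23.1%) against FBS, with 14.4% and 13.9% over all features. In all, 12 of 29 tested inhibitors, p53 targets and antiproliferative genes were higher in MS+ than in FBS (41.4%) and 7 were lower (24.1%).

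Targets of the glucocorticoid receptor were the group with the largest share of members that rose. Of 29 tested, 21 rose in MS+ (against 14.4% of all features), 2 fell and 6 did not pass the test, with a median of 1.07. This list shares members with others, among them Per1 with the clock genes, Angptl4 and Pdk4 with the fatty acid genes and Dusp1 with the immediate early genes. In the cells of rats 1 and 2 the medians were 0.74 and 1.29. Without the block, 15 were higher. Per1, a clock gene that glucocorticoids induce directly (NM_001034125, rn4 chromosome 10, 55859851 to 55868747, plus strand), measured 168 and 146 CPM in MS+, 106 and 104 CPM in MS− and 33.7 and 40.0 CPM in FBS. Its 3 groups did not overlap, and it rose by 2.06 against FBS (adjusted p 2.61e-09) and by 0.58 against MS− (adjusted p 0.00352). Crispld2, a secreted protein, measured 311 and 184 CPM in MS+, 201 and 92.2 CPM in MS− and 170 and 66.7 CPM in FBS. Its libraries overlapped between groups because the cells of rat 1 held more of it in every medium, and within each rat MS+ was the highest. Sult1a1, a sulfotransferase, measured 7.57 and 35.1 CPM in MS+ and 0.327 and 0.663 CPM in FBS, a large difference between the rats. Its reads gave a ratio of 42.9 (exact 95% interval 19.4 to 118).

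Other classic targets of this receptor, chosen here after their values were seen, were also higher. Fkbp5, a chaperone of the receptor itself, measured 43.6 and 60.9 CPM in MS+, 31.6 and 43.2 CPM in MS− and 16.9 and 15.4 CPM in FBS. Tsc22d3, known as GILZ, measured 179 and 189 CPM in MS+, 121 and 96.9 CPM in MS− and 76.0 and 61.2 CPM in FBS. Zbtb16, a transcription factor, was at 0 reads in both FBS libraries and at 3.06 and 6.97 CPM in MS+. Tsc22d3 was called against MS− as well (0.76, adjusted p 0.00039), whereas the difference of Fkbp5 from MS− had an adjusted p of 0.0611. The receptor gene Nr3c1 measured 99.5 and 115 CPM in MS+ and 96.3 and 109 CPM in FBS and was not called. The 2 that fell were the metallothioneins Mt1a and Mt2A, metal-binding proteins of a family of close sequence whose counts are uncertain. Mt1a held 0.90 and 0.55 CPM in MS+ and 28.8 and 13.3 CPM in FBS. Against MS−, 9 of the 29 targets were higher and 3 lower in MS+ (against 5.27% and 4.78% of all features), and 7 were higher than in both other groups. The 9 became 3 without either MS− library, 14 without either FBS library, 4 without the filter and 0 without the block. The comparison of MS− with FBS also had 21 higher, 3 lower and a median of 0.61. The palindrome bound by the receptor (letters GNACA and TGTNC, 3 bases apart) was found in 0 of 17 matched promoters of the targets that rose and in 0.316% of protein-coding promoters, which says only that these letters are not in this window.

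Of 17 clock genes, 6 rose (35.3%) and 3 fell (17.6%), against 14.4% and 13.9% of all features. The 6 became 3 when the MS+ library of rat 1 was left out. Nr1d1, a repressor of the clock whose row overlaps another gene, measured 26.8 and 24.6 CPM in MS+, 14.1 and 17.7 CPM in MS− and 8.68 and 11.3 CPM in FBS. Cry1, another repressor, fell from 10.5 and 13.9 CPM to 6.13 and 6.42 CPM. Nr1d1 and Per1 were called against MS− and Cry1 was not (adjusted p 0.3).

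PPAR targets were among the fatty acid genes that rose. Of 38 tested on this list, 17 rose in MS+ (against 14.4% of all features), 2 fell and 19 did not pass the test, with a median of 0.35. Angptl4, a secreted inhibitor of lipoprotein lipase, held 3 reads in each FBS library and 24.9 and 34.3 CPM in MS+, the largest rise of any gene named here, at 4.34 on the log2 scale (SE 0.20) and a ratio of 59.8 (exact 95% interval 27.2 to 164). Pdk4, the kinase that turns pyruvate dehydrogenase off, measured 40.5 and 39.8 CPM in MS+, 15.7 and 16.6 CPM in MS− and 1.64 and 1.82 CPM in FBS. Cpt1a, which brings long-chain fatty acids into mitochondria (NM_031559, rn4 chromosome 1, 205852800 to 205912972, plus strand), measured 129 and 144 CPM in MS+, 115 and 124 CPM in MS− and 17.7 and 19.9 CPM in FBS. Both rat sera held these genes far above FBS, but only Pdk4 of the 3 was also called against MS− (1.26, adjusted p 0.000415). Acot2, a mitochondrial acyl-CoA thioesterase with a close paralog in Acot1, measured 70.4 and 51.9 CPM in MS+, 32.9 and 28.2 CPM in MS− and 15.6 and 10.4 CPM in FBS. Fabp3, a fatty acid carrier whose row overlaps another gene, went the other way, from 90.2 and 48.7 CPM in FBS to 20.4 and 15.4 CPM in MS+. Cyp26b1, which breaks down retinoic acid (NM_181087, rn4 chromosome 4, 118734786 to 118751606, minus strand), is on no list and was among the largest rises, at 31.5 and 42.2 CPM in MS+, 11.2 and 19.2 CPM in MS− and 1.64 and 1.66 CPM in FBS.

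**Figure D3:**
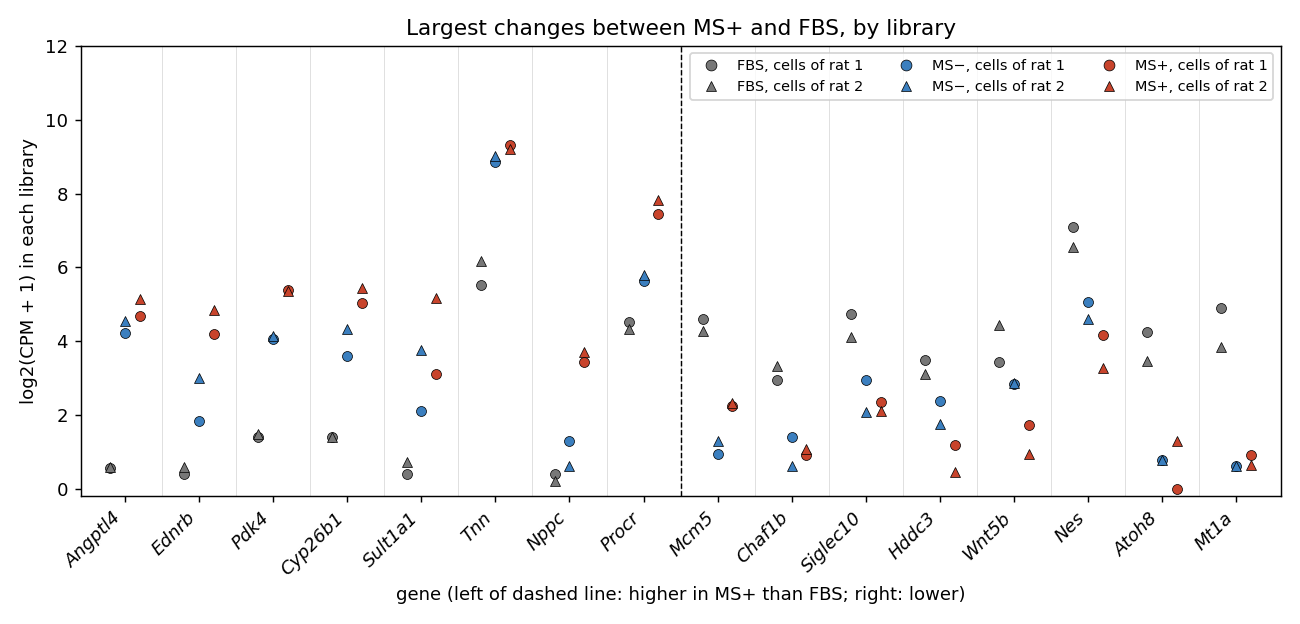
log2(CPM + 1) in each of the 6 libraries for the 8 largest rises and 8 largest falls between MS+ and FBS, with circles for cells of rat 1 and triangles for rat 2. For all 16 genes the red MS+ points lie apart from the grey FBS points, and the blue MS− points lie between them or beside MS+, except for Mcm5, where they lie below the MS+ points.

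Several peptides and receptors that act on vessels were higher in MS+ than in both other sera. Ednrb, an endothelin receptor, measured 17.5 and 27.5 CPM in MS+, 2.56 and 7.05 CPM in MS− and 0.327 and 0.497 CPM in FBS. Nppc, the precursor of C-type natriuretic peptide, measured 9.91 and 12.1 CPM in MS+, 1.46 and 0.542 CPM in MS− and 0.327 and 0.166 CPM in FBS. In both genes the MS+ libraries lay above those of both other groups. MS− was itself called above FBS for Ednrb (1.93, adjusted p 6.73e-05) but not for Nppc (adjusted p 0.137). The FBS libraries held 3 reads or fewer of each. Read ratios of MS+ to FBS were 54.5 (exact 95% interval 23.1 to 169) for Ednrb and 44.5 (14.9 to 219) for Nppc. Penk, the precursor of the enkephalin opioid peptides (NM_017139, rn4 chromosome 5, 17509323 to 17514265, minus strand), measured 2206 and 9675 CPM in MS+, 1112 and 5588 CPM in MS− and 191 and 1482 CPM in FBS. The cells of rat 2 held several times more Penk than those of rat 1 in each serum, and within each rat the order was MS+, MS−, FBS. It rose by 3.12 against FBS (SE 0.14, adjusted p 4.2e-10) and by 0.89 against MS− (adjusted p 0.000885), and both calls needed the rat as a block. Adm, the vasodilator adrenomedullin, measured 14.8 and 19.3 CPM in MS+, 6.77 and 6.33 CPM in MS− and 8.35 and 5.31 CPM in FBS, so MS− and FBS were alike in range and MS+ was above them. Edn1, the endothelin ligand, was named after its values were seen and fell by 1.08 against FBS and by 0.74 against MS−. Of 36 tested genes of this group, 13 rose (36.1%) and 3 fell (8.33%) against FBS, with 14.4% and 13.9% over all features. In 6 of them MS+ was higher than both other groups, which held for 2.86% of all features. Counting falls too, 7 differed from both in the same direction. This count was 6 with DESeq2, 3 without the filter and 0 without the block.

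Among genes of coagulation and its control, more rose than fell. Procr, the endothelial protein C receptor of the anticoagulant pathway (NM_001025733, rn4 chromosome 3, 146268567 to 146273715, plus strand), measured 174 and 226 CPM in MS+, 48.3 and 54.4 CPM in MS− and 21.8 and 19.1 CPM in FBS. It rose by 3.22 against FBS (SE 0.12, adjusted p 7.4e-11) and by 1.93 against MS− (adjusted p 3.72e-07), and it kept both calls without the block. F3, the tissue factor that starts coagulation, measured 60.9 and 91.6 CPM in MS+, 43.7 and 59.1 CPM in MS− and 28.2 and 37.5 CPM in FBS. F2r, a thrombin receptor, rose from 773 and 912 CPM to 1733 and 1702 CPM and was 1835 and 1743 CPM in MS−, so it was shared by both rat sera. Of 19 tested coagulation and plasminogen genes, 9 rose (against 14.4% of all features) and 3 fell (against 13.9%). In 4 of them MS+ was higher than both other groups, which held for 2.86% of all features. The count called against both in the same direction was 1 with DESeq2, 1 without the filter and 1 without the block. Among 11 tested complement genes, 6 rose (54.5%, against 14.4% of all features), or 1 without the block. By limma 0 fell, also at an unadjusted p under 0.05 and by edgeR, limma-voom and DESeq2. Cd55, which protects cells from complement, measured 79.1 and 77.6 CPM in MS+, 63.5 and 54.8 CPM in MS− and 13.9 and 16.4 CPM in FBS.

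With the rat as a block, collagen genes moved in both directions, and more proteases and adhesion genes rose than fell. Col1a1, the main chain of fibrillar collagen, measured 28736 and 25507 CPM in MS+, 23563 and 23624 CPM in MS− and 40458 and 34296 CPM in FBS, a fall of 0.46 (adjusted p 0.0243) whose call was lost without any single MS+ or MS− library, with the 4 libraries of MS+ and FBS alone, without the filter and without the block. Col4a1, a basement membrane chain, rose by 0.87 to 6802 and 4834 CPM from 3819 and 2577 CPM. Of 29 tested collagen and processing genes, 7 rose (24.1%) and 8 fell (27.6%), against 14.4% and 13.9% of all features. Without the block 0 rose and 1 fell. The 7 became 4 and the 8 became 4 when the MS+ library of rat 1 was left out, and the 8 became 5 without the MS+ library of rat 2 and 4 without either MS− library. Of 30 tested matrix proteases and inhibitors, 13 rose (against 14.4% of all features) and 3 fell. The 13 became 7 when the FBS or the MS+ library of rat 1 was left out, 8 without either MS− library, 5 with DESeq2 and 3 without the block, where 3 fell. Adamts1, a protease that cuts proteoglycans, measured 1318 and 1322 CPM in MS+, 685 and 754 CPM in MS− and 312 and 384 CPM in FBS. Adamts5, the aggrecanase (NM_198761, rn4 chromosome 11, 25503380 to 25548845, minus strand), measured 56.9 and 127 CPM in MS+, 26.2 and 54.8 CPM in MS− and 19.3 and 56.9 CPM in FBS, and within each rat MS− and FBS lay close together with MS+ above. Its log2 fold change was 1.33 against FBS and 1.15 against MS−, while MS− was not called against FBS (0.18, adjusted p 0.346). Timp3, an inhibitor of these proteases whose row overlaps another gene, fell from 225 and 220 CPM to 97.1 and 73.4 CPM, and it stood at 102 and 93.5 CPM in MS−.

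Of 42 tested matricellular and proteoglycan genes, 15 rose (35.7%) and 8 fell (19%), against 14.4% and 13.9% of all features. Without the block 6 rose and 1 fell. The 8 became 4 without either MS− library. Tnn, tenascin-N, measured 642 and 590 CPM in MS+, 466 and 519 CPM in MS− and 45.3 and 70.6 CPM in FBS. Sdc4, a heparan sulfate proteoglycan of focal adhesions, measured 517 and 525 CPM in MS+, 258 and 326 CPM in MS− and 140 and 204 CPM in FBS. Thbs2, an inhibitor of vessel growth, was distinct in that MS− lay lowest, at 1037 and 764 CPM, with 1716 and 1172 CPM in FBS and 2094 and 1947 CPM in MS+. Itga8, an integrin chain that binds nephronectin, measured 498 and 489 CPM in MS+, 332 and 374 CPM in MS− and 128 and 172 CPM in FBS. Gjb2, a gap junction protein, measured 37.1 and 111 CPM in MS+ against 11.6 and 11.1 CPM in FBS, with a rise in rat 2 well above that in rat 1. Of 28 tested adhesion genes, 9 rose (32.1%) and 1 fell (3.57%). Of 35 contractile and cytoskeletal genes, 4 rose (11.4%), 12 fell (34.3%) and 19 did not pass the test, with a median of -0.06. Without the block 2 rose and 5 fell. Nes, the intermediate filament protein nestin, measured 16.9 and 8.63 CPM in MS+, 32.2 and 23.5 CPM in MS− and 136 and 93.2 CPM in FBS. Synpo, an actin-binding protein, rose to 87.4 and 91.0 CPM from 39.1 and 48.7 CPM in FBS, with 39.9 and 40.3 CPM in MS−.

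Some signalling ligands and their storage proteins were altered as well. Lrrc32, the receptor that holds latent TGF-beta on the cell surface, measured 222 and 264 CPM in MS+, 113 and 150 CPM in MS− and 58.4 and 57.4 CPM in FBS. Bmp2, a bone morphogenetic protein, measured 42.5 and 51.2 CPM in MS+, 19.0 and 26.9 CPM in MS− and 6.55 and 19.7 CPM in FBS. Both were highest in MS+ in cells of each rat and were called against both other sera. Of 50 tested TGF-beta and BMP genes, 16 rose (32%) and 12 fell (24%), against 14.4% and 13.9% of all features. These counts were 5 and 6 without the block. Atoh8, a transcription factor on that list, fell from 18.2 and 10.1 CPM to 0 and 1.47 CPM, and MS− held 0.73 and 0.72 CPM. Of 37 tested growth factor genes, 13 rose (35.1%) and 4 fell (10.8%), or 3 and 1 without the block. Igfbp4, which binds insulin-like growth factors, measured 84.7 and 52.9 CPM in MS+, 37.1 and 18.8 CPM in MS− and 46.7 and 28.2 CPM in FBS. Nrg1, an ErbB ligand, fell by 1.18 against FBS and by 1.17 against MS−, with MS+ at 16.2 and 5.69 CPM and the other libraries at 19.5 to 27.3 CPM. Among 36 Wnt genes, 6 rose (16.7%, near the share of all features) and 8 fell (22.2%), with a median of 0.01. The 8 became 4 or 5 when the FBS or the MS+ library of rat 1 was left out. Wnt5b, a ligand, measured 2.34 and 0.918 CPM in MS+, 6.22 and 6.33 CPM in MS− and 9.82 and 20.9 CPM in FBS, and Fzd1, a receptor, rose to 1545 and 1263 CPM from 618 and 587 CPM.

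Immediate early genes were lower in MS+ than in either other serum in part of the list. Of 35 tested, 14 fell and 7 rose against FBS (13.9% and 14.4% of all features did), with a median of 0.06. Against MS−, 16 fell and 2 rose (4.78% and 5.27% of all features did), with a median of -0.35. MS− against FBS had 11 higher (10.8% of all features) and 3 lower. In 9 genes MS+ was lower than both other groups, which held for 3.02% of all features. Counting rises too, 10 differed from both in the same direction. This count was 2 with DESeq2, 2 without the filter and 0 without the block. The 14 that fell against FBS became 4 with DESeq2, 7 without the filter, 9 without MS+ replicate 2 and 3 without the block, and the 16 that fell against MS− became 8 or 4 when the MS− library of rat 1 or rat 2 was left out, 4 without the filter, 8 with DESeq2 and 0 without the block. Fos, a subunit of the AP-1 factor, measured 178 and 104 CPM in MS+, 248 and 394 CPM in MS− and 289 and 299 CPM in FBS. Fosb, another subunit that the table lists as LOC100360880, measured 190 and 113 CPM in MS+, 271 and 492 CPM in MS− and 362 and 338 CPM in FBS. The calls of both against FBS were lost with DESeq2 and without the block, and that of Fos without the filter as well. In both, the MS+ libraries lay below all 4 others, and the difference from MS− was larger in the cells of rat 2. Dusp6, a phosphatase that ERK signalling induces, measured 32.8 and 29.9 CPM in MS+, 47.6 and 56.4 CPM in MS− and 66.3 and 86.7 CPM in FBS. Atf3, a stress-induced factor, measured 4.32 and 1.84 CPM in MS+ and 9.99 and 6.47 CPM in FBS. Dusp1, a phosphatase that glucocorticoids also induce, rose by 0.58 against FBS and was not called against MS− (adjusted p 0.444). Txnip, a brake on glucose uptake, was lowest in MS+ at 99.6 and 106 CPM, with 179 and 166 CPM in FBS and 259 and 321 CPM in MS−. It was called in each of the 3 comparisons, and MS− and MS+ lay on opposite sides of FBS.

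Of 28 tested cytokine, chemokine and prostaglandin genes, 9 rose (against 14.4% of all features) and 4 fell (against 13.9%). Cxcl1, a chemokine for neutrophils, measured 84.7 and 44.6 CPM in MS+, 30.2 and 24.8 CPM in MS− and 7.86 and 6.30 CPM in FBS. Ccl7, a chemokine for monocytes, rose from 1.64 and 1.16 CPM to 6.13 and 7.34 CPM, and MS− held 10.6 and 12.8 CPM. Il6 and Cxcl12, named after their values were seen, went down, Il6 from 14.2 and 9.95 CPM to 6.31 and 2.39 CPM and Cxcl12 from 24.6 and 37.5 CPM to 9.19 and 13.4 CPM. Ptgs1, a cyclooxygenase, measured 89.0 and 138 CPM in MS+, 62.6 and 77.4 CPM in MS− and 79.1 and 63.3 CPM in FBS, a rise whose call was lost without the FBS or the MS+ library of rat 2, without the filter and without the block. Of 28 tested interferon response genes, 2 rose (7.14%) and 8 fell (28.6%). The 8 became 5 or 4 when the FBS or the MS+ library of rat 1 was left out, 1 with DESeq2 and 2 without the block.

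Genes of amino acid supply were lower than FBS in both rat sera in part of the list. Of 42 tested targets of the factor ATF4, 11 fell (26.2%) and 2 rose (4.76%) in MS+ against FBS, with a median of -0.22. Over all features the shares were 13.9% and 14.4%. Against MS−, 15 of these targets were higher and 2 lower in MS+ (against 5.27% and 4.78% of all features). MS− against FBS had 30 lower (against 9.63%). The 11 became 20 when the FBS library of rat 2 was left out, 7 or 22 when the MS+ library of rat 1 or rat 2 was left out, and 4 without the block. Leaving out the MS− library of rat 1 turned the 15 into 3, that of rat 2 into 2 and the MS+ library of rat 2 into 9. They became 8 with DESeq2, 4 without the filter and 0 without the block. Chac1, an enzyme that degrades glutathione, measured 23.1 and 44.0 CPM in MS+, 42.3 and 48.8 CPM in MS− and 122 and 95.2 CPM in FBS. Nupr1, a stress-induced nuclear protein, measured 127 and 176 CPM in MS+, 224 and 305 CPM in MS− and 340 and 419 CPM in FBS, and it was called in all 3 comparisons. Of 25 chaperone and unfolded protein genes, 4 rose and 3 fell against FBS, close to the 14.4% and 13.9% over all features, and the 4 became 0 with DESeq2, without the block and when the MS+ library of rat 1 or either MS− library was left out, and 1 without the FBS or the MS+ library of rat 2. Against MS−, 12 were higher in MS+ (against 5.27% of all features), a count that was 0 without the block, 0 with the MS− library of rat 1 left out and 3 with that of rat 2 left out. By limma 0 of these were lower than in MS−, also at an unadjusted p under 0.05 and by edgeR, limma-voom and DESeq2. Hmox1, the heme oxygenase, fell from 530 and 372 CPM to 205 and 162 CPM, and MS− held 207 and 188 CPM. Of 76 cytosolic ribosomal protein genes, 8 were lower (10.5%, against 13.9% of all features). This count was 1 without the FBS or the MS+ library of rat 1. It was 15 or 16 without the FBS or the MS+ library of rat 2 and 2 without either MS− library. By limma 0 were higher, also at an unadjusted p under 0.05 and by edgeR, limma-voom and DESeq2. Respiratory chain genes had 4 of 61 higher (6.56%) and 2 lower (3.28%), both shares under those of all features. With library totals 2 were higher and 3 lower. The 4 became 2 without the FBS or the MS+ library of rat 2 or either MS− library. Among the remaining metabolic lists, 13 of 46 lysosomal genes rose (28.3%) and 3 fell (6.52%), against 14.4% and 13.9% of all features. Of 32 NRF2, metallothionein and zinc genes, 9 rose (28.1%) and 10 fell (31.2%). Of 38 glycolysis and hypoxia genes, 3 rose (7.89%) and 9 fell (23.7%), or 2 and 1 without the block. The 13 lysosomal genes became 6 or 5 without the FBS or the MS+ library of rat 1, 7 without either MS− library, 6 with DESeq2 and 3 without the block. Without the FBS library of rat 1 the 10 became 6 and the 9 became 5, and without the MS+ library of rat 1 the 10 also became 6. Sterol and fatty acid synthesis had 5 of 32 genes higher (15.6%, near the share of all features) and 7 lower (21.9%). Both counts were 0 without the block. The 7 became 4 without the FBS library of rat 2 or the MS+ library of rat 1. Sterol efflux had 3 of 11 higher and 3 lower (27.3% each).

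Axon guidance genes, which fibroblasts also express, rose in 10 (26.3%) and fell in 9 (23.7%) of 38 cases, against 14.4% and 13.9% of all features. The 10 became 6 when the MS+ library of rat 1 was left out. Sema3d, Sema3e and Sema5a encode secreted or membrane semaphorins and rose by 1.57, 1.29 and 1.53. Sema5a measured 15.7 and 12.1 CPM in MS+, 4.02 and 6.87 CPM in MS− and 4.42 and 3.81 CPM in FBS, so that MS− and FBS overlapped and MS+ lay above. Nrp2, a semaphorin and VEGF co-receptor, measured 236 and 240 CPM in MS+, 357 and 394 CPM in MS− and 518 and 812 CPM in FBS. All 4 were called against MS− in the same direction as against FBS.

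Features for which MS+ differed from both other sera numbered 578, and MS− itself was not called against FBS in 423 of them. In 139, MS− had moved from FBS in the same direction as MS+, and in 16 in the opposite direction. In 44 of the 281 higher and 26 of the 297 lower features, MS+ differed 2-fold or more from both. Celsr3, a cadherin of planar cell polarity, measured 15.0 and 22.0 CPM in MS+, 2.74 and 4.34 CPM in MS− and 0.491 and 2.16 CPM in FBS. Slc29a4, a monoamine transporter (NM_001105911, rn4 chromosome 12, 12241259 to 12251651, minus strand), measured 5.22 and 11.01 CPM in MS+, 0.915 and 2.17 CPM in MS− and 1.15 and 1.82 CPM in FBS. Scin, an actin-severing protein (NM_198748, rn4 chromosome 6, 59237930 to 59357001, minus strand), measured 3.60 and 4.22 CPM in MS+, 0.732 and 0.362 CPM in MS− and 0.818 and 0.166 CPM in FBS, with 6 reads in each of the latter groups. In Slc29a4 and Scin the MS− and FBS libraries overlapped, and only MS+ stood apart. Rassf2, a Ras-binding protein, rose to 4.32 and 18.9 CPM from 0.164 and 0.332 CPM in FBS, with a wide gap between the rats.

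Among the genes lowest in MS+, Pcdh18, a protocadherin (NM_001100524, rn4 chromosome 2, 138615496 to 138629181, minus strand), measured 8.11 and 9.91 CPM in MS+, 19.2 and 28.6 CPM in MS− and 17.5 and 36.6 CPM in FBS. Mgll, a lipase that degrades an endocannabinoid (NM_138502, rn4 chromosome 4, 122822493 to 122922892, plus strand), measured 1.62 and 1.28 CPM in MS+, 6.59 and 3.62 CPM in MS− and 7.20 and 5.31 CPM in FBS. Hdac9, a class II histone deacetylase listed as LOC687001, measured 1.44 and 2.20 CPM in MS+, 6.22 and 9.40 CPM in MS− and 3.93 and 9.78 CPM in FBS. In all 3 the MS− and FBS libraries overlapped, and every MS+ library lay below them. Slc16a12, a transporter of the monocarboxylate family, measured 1.44 and 2.75 CPM in MS+, 4.94 and 10.8 CPM in MS− and 5.89 and 19.6 CPM in FBS. Hddc3, a hydrolase, fell by 2.49 against FBS and by 1.25 against MS−, at 0.367 to 1.26 CPM in MS+. The calls of Pcdh18, Hdac9 and Slc16a12 against FBS were lost without the block. Gpr75, a receptor with 3 to 7 reads per MS+ library, lost its call against FBS under 5 of the settings tried. In the reported fit and in the 14 alternatives that kept the block and all 3 groups, 38 of the 578 features kept both calls throughout, 25 higher and 13 lower. Ednrb, Nppc, Procr, Celsr3, Pdk4, Adamts1, Adamts5, Lrrc32, Igfbp4, Sdc4, Synpo, Thbs2 and Crispld2 were among the 25, and Nes, Nupr1, Pcdh18 and Txnip among the 13.

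**Figure D4:**
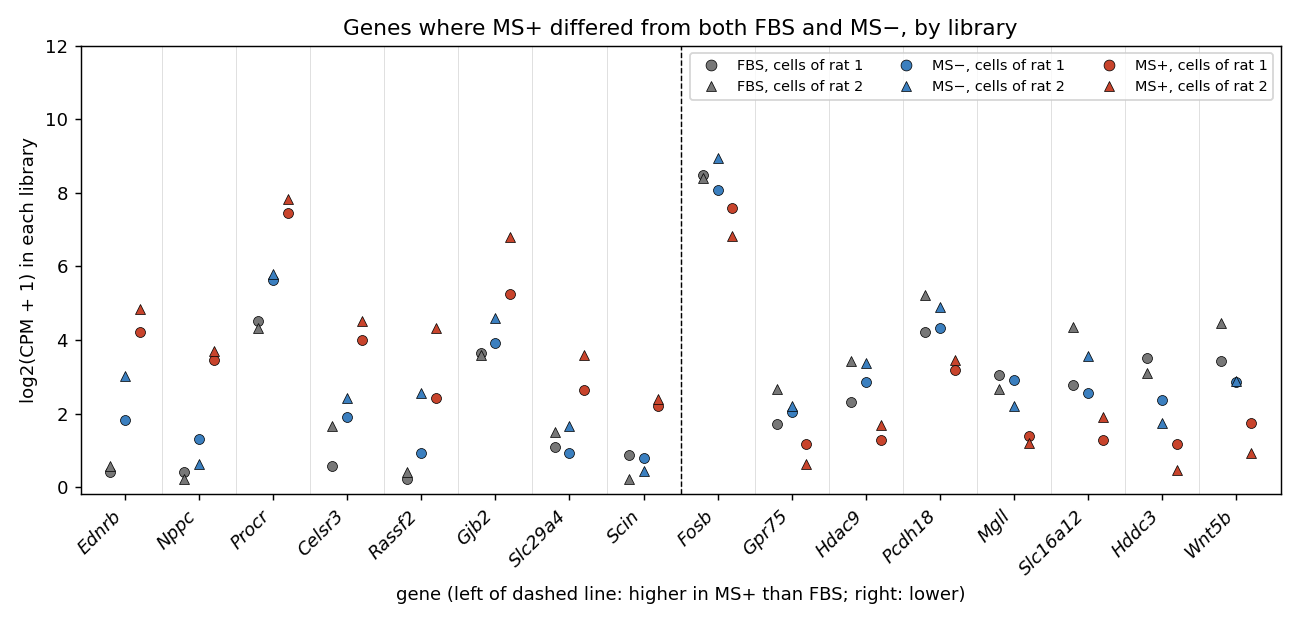
log2(CPM + 1) in each library for the 8 genes most raised and the 8 most lowered in MS+ relative to both FBS and MS−, with circles for cells of rat 1 and triangles for rat 2. In the genes to the left of the dashed line every red MS+ point lies above the FBS and MS− points of the same rat, and in those to the right below them. For Slc29a4, Scin, Slc16a12, Hdac9, Pcdh18, Mgll, Fosb and Gpr75 the ranges of the grey and blue points overlap.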

How the data were processed

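Poly(A) RNA of 6 cultures (3 sera, cells of 2 rats) was sequenced. Reads were filtered by the sequencing company, aligned to the rat genome rn4 with Bowtie2 2.1.0 and counted per transcript with HTSeq 0.5.4p3 in its intersection-nonempty mode, per the labels and the study's methods. The authors scaled the counts with edgeR TMM factors and deposited the resulting signal, in CPM. Reads shared by overlapping transcripts are dropped by that mode, strand use is not given in the sources used here, and 1438 rows overlap a row of another symbol. Whole reads were recovered from the column steps (100% of values whole within 1e-06), and 4567 of 17221 rows were at 0 throughout.

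Features with 1 CPM or more in both libraries of a group were tested with limma 3.58.1 (lmFit, eBayes with trend, two-sided, R 4.3.3) on log2(CPM + 1), with all 6 libraries, serum and rat as terms, and Benjamini-Hochberg adjustment over 9820 features. Called means an adjusted p under 0.05, and every adjusted p is from this fit unless another tool is named. The fit left 2 residual degrees of freedom per feature, and the spread borrowed from all features counted as 13.42 more. Small p-values therefore rest mostly on that shared spread. Fold changes on this scale understate the change of low genes. The rat numbers pair the libraries, since the labels name the same 2 rats in each group, and rat differences correlated between groups by 0.59 (MS+ and MS−), 0.49 (MS+ and FBS) and 0.62 (MS− and FBS). Libraries of a group were not copies (chi-square per degree of freedom 13.6 to 15.1). In simulated counts of 9820 genes for MS+ against FBS, 80 of 93 genes changed 2-fold, 104 of 107 changed 4-fold and 7 of 9620 unchanged genes were called. The simulation used the same relative spread for all genes, the same rat effect in every serum and no change in MS−. Its counts are therefore not error rates of the real calls.

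The members and the 31 gene lists were chosen with earlier results of these data known. Genes were named by rule: the 8 largest rises and 8 largest falls against FBS, the 8 and 8 with the largest smaller change where MS+ differed from both other groups, and per list the most abundant member, the 3 largest changes and up to 3 that differed from both. The first 2 sets had to move the same way in both rats. Genes were otherwise named after their values were seen: Kifc1, Kif22, Espl1, Mcm6, Fkbp5, Tsc22d3, Zbtb16, Nr3c1, Edn1, Il6 and Cxcl12. List counts have no test of their own and are read against the shares over all features. Alternatives were other pseudocounts (0.1 and 5), no filter, DESeq2 size factors, library totals, edgeR 4.0.16 (2861 features called), limma-voom and DESeq2 1.42.0 on recovered reads, the 4 libraries alone, no block, and each library left out. Intervals of read ratios are exact (95%) and cover counting error only. Accessions of 15950 rows (92.6%) matched the RefSeq table of GRCr8, used for names and promoters only. The coordinates of genes are those deposited, in rn4, written 1-based, as transcript spans without exons. Some genes are not reported here.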

Additional observations from a re-analysis of the deposited data

Results flagged for a closer look

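Bhlhe40, a repressor of the circadian clock and the most abundant clock gene tested, moved in different ways in the cells of the 2 rats. Between MS+ and FBS it rose by 0.80 on the log2 scale in rat 1, from 244 to 425 CPM, and stood at -0.02 in rat 2, with 275 and 272 CPM. The fit over both rats gave 0.39 (adjusted p 0.0354). The difference between the rats was not tested. Groups of 2 libraries are too small for a check of single libraries that lie far from the rest.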

How the results depend on the processing

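The count of 2773 features called between MS+ and FBS stayed within 1.5 times under all alternatives except 2, DESeq2 (1173) and no replicate block (944). With 1 library left out it ranged from 2042 to 2727. The 578 features that differed from both other groups in the same direction became 149 with DESeq2, 122 without the filter and 2 without the replicate block, and 66 to 777 with 1 library left out. The 96 that lay between the groups became 28, 21 and 0 under the same settings, and 16 to 153 with 1 library left out. Without MS− replicate 1 or 2, MS− rests on 1 library, which is assumed to vary like the others. Of the 148 genes that the naming rule took and that were called against FBS, 81 were called without the block, and 77 kept their call in every setting run. No call of a gene named in the text turned its direction, against FBS or against MS−, in any setting. The cause of these shifts was not tested. Of 60 called against MS−, 58 lost that call without the block, 36 without MS− replicate 1 and 30 without MS− replicate 2. Library totals moved the share of called features that were higher from 50.8% to 42.1%, and the median log2 fold change by -0.05. Features near 3 reads per library are limited by counting error.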
